A study of Homo sapiens with 4 samples.

Results

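The regions described here are the ONECUT2 peaks nearest to the short-arm ends of 10 human chromosomes. They are all called regions whose start lies in the first 3 Mb of chromosome 2, 3, 4, 5, 6, 9, 10, 11, 16 or 20 in the genome build hg19. By this rule the replicate 1 list has 230 members of its 14431 peaks, the replicate 2 list has 130 of 11990, and the IDR list (a list made with an irreproducible discovery rate procedure, which ranks regions across replicates) has 70 of 4297. Where lists overlap, these 430 entries mark 237 separate sites. The study mapped ONECUT2 in 22Rv1, an established human prostate carcinoma cell line, by chromatin immunoprecipitation and sequencing (ChIP-seq). It has 2 ChIP libraries, for which a rabbit anti-ONECUT2 antibody was used, and 2 input libraries without antibody. All came from this line in RPMI-1640 medium with serum, and the labels name no treatment. Nothing in the labels shows that the replicates were grown separately, so their spread may be technical. No expression was measured, so the cell label was not checked against markers.

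ONECUT2 is a transcription factor with a CUT domain and a homeodomain. It is known for roles in liver, pancreas and neurons, and in prostate cancer that has become resistant to castration. The end of a human chromosome carries telomere repeats, followed by subtelomeric DNA in which stretches are shared between chromosomes, and then by unique sequence. The short-arm ends are known to differ widely in gene content. The end of 16 is rich in genes and G and C bases and holds the alpha-globin genes, the end of 11 holds the imprinted IGF2 domain, the end of 5 holds TERT, the catalytic subunit of telomerase, and the end of 4 holds FGFR3, a fibroblast growth factor receptor. The end of 3 is known for few and very long genes, among them the cell adhesion genes CHL1, CNTN6 and CNTN4.

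Gene order in RefSeq's table of GRCh38.p14 gives the place of some genes of these ends. Counted from the short-arm end, CNTN4 was the 5th protein-coding gene of chromosome 3 and FOXC1, a forkhead factor of eye and vessel development, the 8th of chromosome 6. MYT1L, a neuronal zinc-finger factor, was the 10th of chromosome 2. TERT was the 28th of chromosome 5 and FGFR3 the 44th of chromosome 4. KCNQ1, a potassium channel gene, was the 85th of chromosome 11, and TSC2, an inhibitor of mTOR signalling, the 106th of chromosome 16. SMARCA2 was the 15th of chromosome 9, DIP2C the 3rd of chromosome 10 and TRIB3 the 12th of chromosome 20. These genes were picked by hand, after the data were seen, and do not lie at equal distances from the ends. Their order therefore does not measure the gene content of the first 3 Mb. That table is of another build than the peaks, so no gene was assigned to a peak and no sequence was read.

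Short-arm ends as a whole held more called regions than the rest of the same chromosomes, with wide differences between ends. The replicate 1 list had 7.67 members per Mb (exact Poisson interval 6.71 to 8.72, as all intervals at 95%), against 4.00 per Mb over the rest of the 10 chromosomes (interval 3.90 to 4.11). The replicate 2 list had 4.33 per Mb (interval 3.62 to 5.15) against 3.20 (interval 3.11 to 3.30). The IDR list had 2.33 per Mb (interval 1.82 to 2.95) against 1.08 (interval 1.02 to 1.13).

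The density ratio to the rest was 1.91 in replicate 1 (interval 1.67 to 2.18, adjusted exact p = 6.34e-18), 1.35 in replicate 2 (interval 1.13 to 1.61, adjusted exact p = 0.00198) and 2.17 in the IDR list (interval 1.68 to 2.76, adjusted exact p = 2.69e-08). These are two-sided exact conditional tests of counts, adjusted by Benjamini-Hochberg over 5 ratios. Neighbouring peaks are not independent, so the intervals and p-values cover counting error only and are too narrow. In each list the density was higher than in the rest on only 5 of the 10 chromosomes and lower on the other 5. Chromosomes 16 and 4 together held 52.6% of the replicate 1 members, 50.8% of the replicate 2 members and 50% of the IDR members. Without these chromosomes, a pair chosen after the values were seen, the ratios were 1.12 in replicate 1 (interval 0.914 to 1.35), 0.816 in replicate 2 (interval 0.628 to 1.04) and 1.35 in the IDR list (interval 0.936 to 1.89). Leaving out the densest ends lowers the ratio by construction, so these values only describe the other 8 ends. In replicate 2, leaving out chromosome 16 alone (ratio 1.06, adjusted exact p = 0.551) or chromosome 4 alone (ratio 1.16, adjusted exact p = 0.146) was enough to lose the call.

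**Figure D1:**
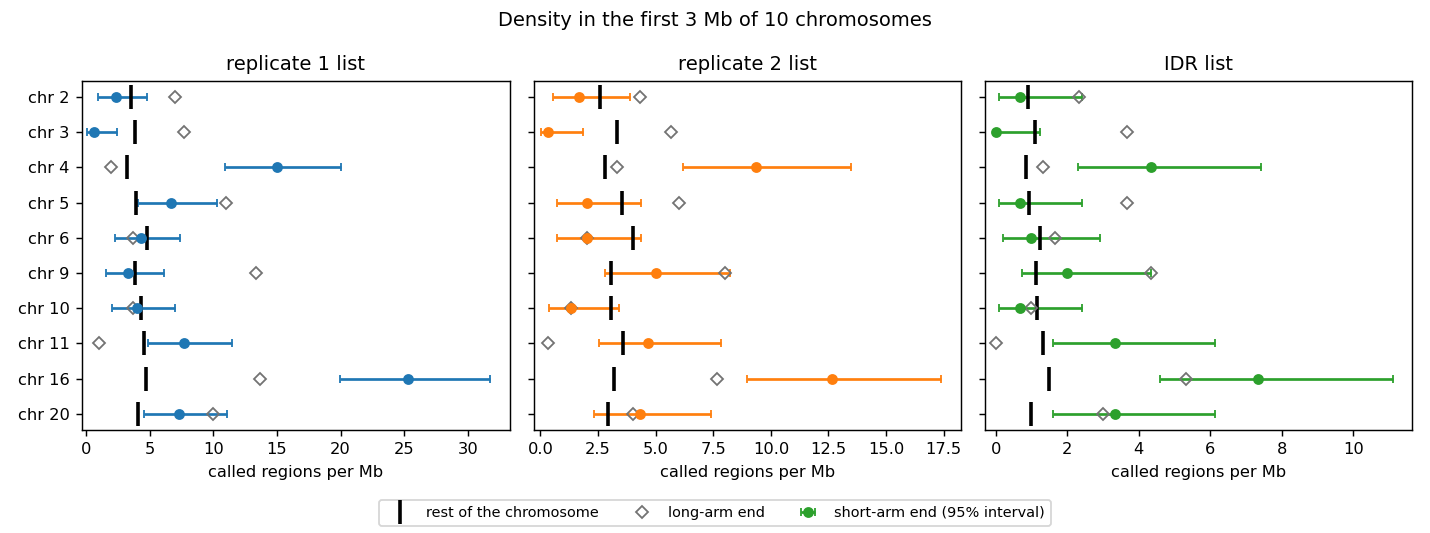
Called regions per Mb in the first 3 Mb of each of 10 chromosomes (filled circles, with exact Poisson 95% intervals), in the rest of the same chromosome (black bars) and in its last 3 Mb (open diamonds), for the 2 replicate lists and the IDR list; each panel has its own scale. Chromosomes 4, 11, 16 and 20 stand to the right of their black bars in all 3 panels, and chromosomes 2, 3, 6 and 10 stand to the left.

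The ends differed from each other far more than the pooled ratios show. The end of chromosome 16 was the densest in all 3 lists, with 76 peaks in replicate 1 (25.3 per Mb), 38 in replicate 2 (12.7 per Mb) and 22 IDR regions (7.33 per Mb). Its ratio to the rest of chromosome 16 was 5.37 in replicate 1 (interval 4.15 to 6.87, adjusted exact p = 3.15e-27), 3.97 in replicate 2 (interval 2.75 to 5.58, adjusted exact p = 1.42e-10) and 4.89 in the IDR list (interval 2.96 to 7.72, adjusted exact p = 6.87e-08). The end of chromosome 4 came next, with 45 and 28 replicate peaks and 13 IDR regions. Its ratios were 4.65 (interval 3.36 to 6.30, adjusted exact p = 6.38e-15) in replicate 1, 3.33 (interval 2.19 to 4.87, adjusted exact p = 6.92e-07) in replicate 2 and 5.13 (interval 2.67 to 9.02, adjusted exact p = 2.01e-05) in the IDR list. These tests were adjusted over the 30 combinations of end and list.

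Chromosomes 20 and 11 gave a call in some lists only. The end of chromosome 20 had 22 peaks in replicate 1, 13 in replicate 2 and 10 IDR regions, and its ratio passed the test in replicate 1 (1.79, interval 1.10 to 2.77, adjusted exact p = 0.0372) and in the IDR list (3.33, interval 1.52 to 6.57, adjusted exact p = 0.00575). In replicate 2 its ratio was 1.47 (interval 0.767 to 2.58, adjusted exact p = 0.271). The end of chromosome 11 had 23 and 14 replicate peaks and 10 IDR regions, with a ratio of 2.51 in the IDR list (interval 1.18 to 4.74, adjusted exact p = 0.0267), 1.67 in replicate 1 (adjusted exact p = 0.0511) and 1.30 in replicate 2 (adjusted exact p = 0.482). The end of chromosome 5 had 20 peaks in replicate 1 and 6 in replicate 2, on opposite sides of the rest of its chromosome, with ratios of 1.68 (adjusted exact p = 0.0642) and 0.564 (adjusted exact p = 0.316).

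Chromosome 3 went the other way. Its end had 2 peaks in replicate 1, 1 in replicate 2 and no IDR region, against 3.87, 3.34 and 1.10 per Mb over the rest of chromosome 3. The ratio was 0.172 in replicate 1 (interval 0.0208 to 0.624, adjusted exact p = 0.00564) and 0.0999 in replicate 2 (interval 0.00252 to 0.558, adjusted exact p = 0.00454). In the IDR list the count of 0 allowed up to 1.23 regions per Mb, which includes the density of the rest, so a lower density was not detectable there. Ends of chromosomes 2, 6, 9 and 10 had between 7 and 13 peaks in replicate 1, between 4 and 15 in replicate 2 and between 2 and 6 IDR regions, and none of their ratios passed the test in any list.

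Peak density varies along every chromosome, so the ends were set against all windows of their size. Each of the 10 chromosomes was cut into windows of 3 Mb, 515 in all, and each window was compared with the rest of its chromosome. At an exact p under 0.05 without adjustment, 5 of the 10 ends were higher in replicate 1, against 18.3% of all windows, 2 in replicate 2, against 15.7%, and 4 in the IDR list, against 11.1%. In the other direction it was 1 end in replicate 1, against 25.2% of windows, 1 in replicate 2, against 22.7%, and 0 in the IDR list, against 3.50%. With p-values adjusted over all windows and lists, for ends and other windows alike, 2 ends were higher in replicate 1 (4 and 16; chromosome 20 had an adjusted exact p of 0.0556), against 14.8% of windows, 2 in replicate 2, against 11.1%, and 4 in the IDR list, against 7.57%. Lower were 1 end in replicate 1, against 20.2%, 1 in replicate 2, against 16.3%, and 0 in the IDR list, against 1.55%. With so many windows past these thresholds, a single end past them does not stand apart from other places by the test alone.

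The rank of an end among the windows is the plainer measure. The end window of chromosome 16 ranked 1 of 515 in replicate 1, 5 in replicate 2 and 2 in the IDR list, and it was the fullest of the 30 windows of chromosome 16 in each list. The end window of chromosome 4 ranked 7, 18 and 12 of 515. Among the 63 windows of its own chromosome it ranked 1, 2 and 1. The end of chromosome 20 ranked 4 of 21 windows in both replicates and 1 in the IDR list. The median of the 505 other windows was 10 peaks in replicate 1, 8 in replicate 2 and 2 IDR regions. Of the 10 ends, 7, 5 and 6 lay above these medians. Their own medians were 16.5, 9.5 and 4.5.

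**Figure D2:**
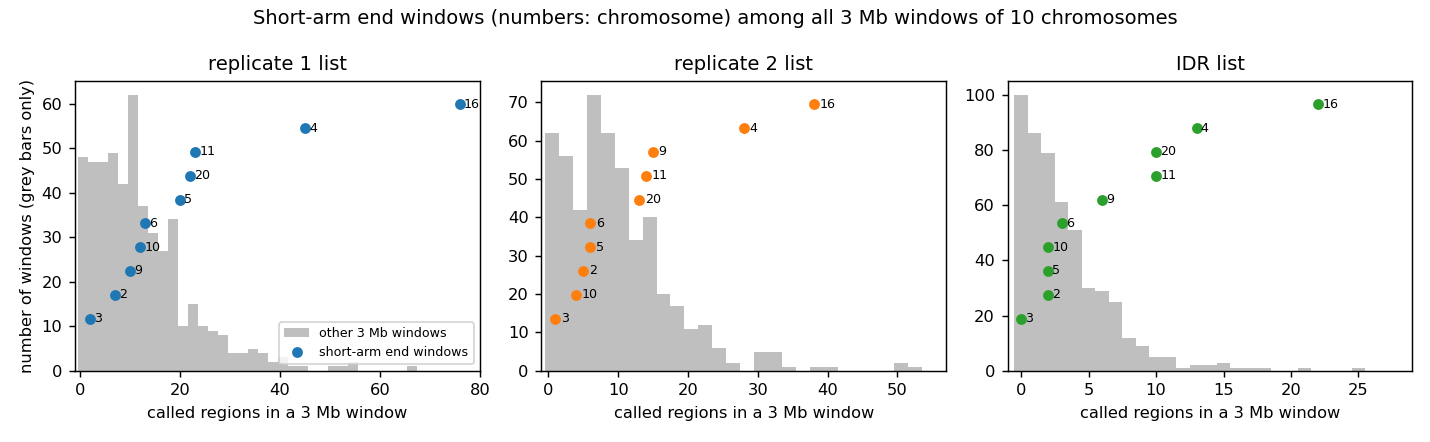
Number of called regions in windows of 3 Mb over 10 chromosomes, with grey bars for the 505 windows away from the short-arm end (vertical axis: number of windows) and a point for each short-arm end, labelled by chromosome and spread vertically for legibility. In replicate 1 the chromosome 16 point, at 76 peaks, lies beyond the fullest of the other windows, which had 66, and chromosome 3 lies at 2.

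Pooled over the 10 chromosomes, density was highest next to the end, though not on each of them. Over the 10 chromosomes the outermost 1 Mb had 106 peaks in replicate 1, or 10.6 per Mb (interval 8.68 to 12.8), and the next 2 bins of 1 Mb had 6.20 per Mb each (interval 4.75 to 7.95). In replicate 2 the 3 bins had 6.40, 2.80 and 3.80 per Mb, and in the IDR list 3.5, 1.5 and 2 per Mb. The bin after these, from 3 to 4 Mb, had 6 per Mb in replicate 2 (interval 4.58 to 7.72). That was close to its outermost bin (interval 4.93 to 8.17), and the intervals overlap. In the IDR list the bin from 3 to 4 Mb had 2.5 per Mb. With a window of 1 Mb in place of 3 Mb, the ratio to the rest was 2.63 in replicate 1 (interval 2.15 to 3.18), 2.00 in replicate 2 (interval 1.54 to 2.55) and 3.23 in the IDR list (interval 2.24 to 4.51).

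On chromosome 6 the first 4 bins held 2, 3, 8 and 15 peaks in replicate 1, so its outermost bin was not the fullest. Pooled density did not step down at the 3 Mb boundary. The bin from 3 to 4 Mb had 8.20 peaks per Mb in replicate 1, more than either bin before it, with 35 of its 82 peaks on chromosome 16. On that chromosome the 6 bins from 0 to 6 Mb held 28, 15, 33, 35, 18 and 1 peaks in replicate 1, 15, 7, 16, 21, 9 and 1 in replicate 2 and 10, 4, 8, 12, 6 and 0 IDR regions. The dense stretch of chromosome 16 thus ran on to 5 Mb and fell off in the bin after it. On chromosome 4 the same bins held 16, 21, 8, 3, 2 and 0 peaks in replicate 1 and 14, 10, 4, 1, 3 and 0 in replicate 2, and 5, 7, 1, 1, 3 and 0 IDR regions. Most of that stretch lay in the first 2 Mb. By start, the member nearest to the boundary was a replicate 1 peak on chromosome 6 from 2990674 to 2990936, with a fold enrichment of 3.28, inside an IDR region from 2989439 to 2991852 with a signal of 216. The nearest region outside, and so no member, was an IDR region on chromosome 16 from 3016691 to 3021157, with a signal of 308.

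**Figure D3:**
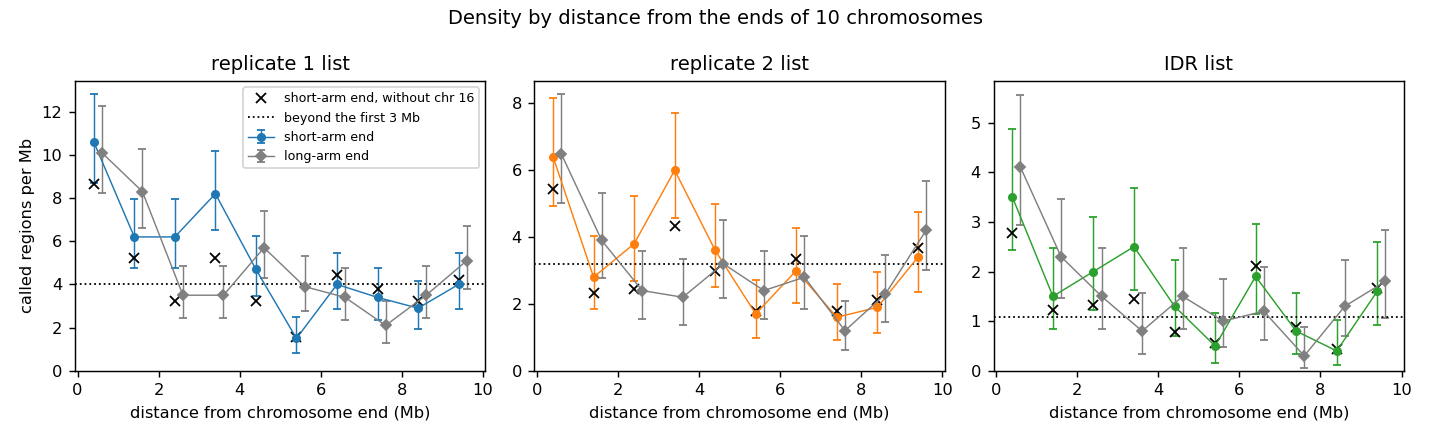
Called regions per Mb in bins of 1 Mb by distance from the short-arm end (coloured circles) and from the long-arm end (grey diamonds) over 10 chromosomes, with exact Poisson 95% intervals; crosses leave out chromosome 16 and the dotted line is the density beyond the first 3 Mb. In all 3 lists both ends are highest in the outermost bin.

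Pooled, short-arm and long-arm ends of the same chromosomes did not differ in density by the test. The last 3 Mb had 219 peaks in replicate 1, 128 in replicate 2 and 79 IDR regions. The short-arm over long-arm ratio was 1.05 (interval 0.869 to 1.27), 1.02 (interval 0.790 to 1.31) and 0.886 (interval 0.633 to 1.24), each with an adjusted exact p of 0.950. A difference of up to 1.27-fold in replicate 1 thus stays within the interval. Without chromosomes 4 and 16, whose dense short-arm ends were known when they were chosen, the ratio was 0.634 in replicate 1, 0.674 in replicate 2 and 0.593 in the IDR list; the choice itself lowers it.

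Single chromosomes had unlike ends, given here as counts without a test. Chromosome 4 had 45 replicate 1 peaks at its short-arm end and 6 at its long-arm end, and replicate 2 had 28 and 10. Chromosome 11 had 23 and 3 in replicate 1 and 14 and 1 in replicate 2. Chromosome 9 was the reverse, with 10 and 40 in replicate 1 and 15 and 24 in replicate 2. Chromosome 3 had 2 and 23 in replicate 1 and 1 and 17 in replicate 2. On chromosome 16 both ends were dense, with 76 and 41 in replicate 1 and 38 and 23 in replicate 2.

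Members had on the whole a lower fold enrichment than the peaks of their lists, as had long-arm peaks. The median fold enrichment, the authors' ratio of ChIP fragments at the summit to a local input background, was 2.92 in replicate 1 and 3.05 in replicate 2, against 3.28 and 3.41 over the whole lists. A fold enrichment below 3 was found for 125 of 230 replicate 1 members (54.3%, against 38.2% of the whole list) and for 64 of 130 replicate 2 members (49.2%, against 30.7%). At the long-arm ends these shares were 48.9% and 53.1%, with median folds of 3.04 and 2.95. Strong members, taken as those with at least 6-fold enrichment, numbered 17 in replicate 1 (7.39%, Clopper-Pearson interval 4.36% to 11.6%, against 7.46% of the whole list) and 13 in replicate 2 (10%, interval 5.43% to 16.5%, against 7.08%). The share of strong peaks was thus near that of the whole lists. Per Mb, peaks of this height were 1.91 times as dense as in the rest in replicate 1 (interval 1.10 to 3.10, adjusted exact p = 0.0206) and 1.78 times in replicate 2 (interval 0.939 to 3.08, adjusted exact p = 0.0589). Against the long-arm ends the ratio was 1.13 for replicate 1, with limits of 0.532 and 2.44. For replicate 2 it was 1.30, with limits of 0.527 and 3.31. Both had an adjusted exact p of 0.950, so the arms were not told apart at this height. Strong peaks were denser than in the rest on 6 of the 10 chromosomes for replicate 1 and 5 for replicate 2. Chromosomes 4 and 11 held 5 strong members each in replicate 1 and 4 each in replicate 2.

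Beside the low fold, members had more ChIP fragments and a higher input background than peaks in the rest of the chromosomes, and long-arm peaks did too. Their median summit height was 38 ChIP fragments in replicate 1 and 40 in replicate 2, against 33 and 29 over the rest of the chromosomes. The median input background under them was 13.2 fragments in replicate 1 and 13.9 in replicate 2, against 9.86 and 7.17. Only 15 replicate 1 members (6.52%) and 16 replicate 2 members (12.3%) lay at the smallest background of their list, against 17.2% and 30.2% of the peaks in the rest. Long-arm ends had medians of 40 and 42.5 fragments over backgrounds of 13.8 and 14.6. At the end of chromosome 16 the median backgrounds were 14.5 and 16.8, and at the end of chromosome 9, the only one with more peaks in replicate 2 than in replicate 1, they were 7.05 and 5.06. At the end of chromosome 2, with 7 peaks in replicate 1 and 5 in replicate 2, they were 5.26 and 7.20.

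Strong members were few and were found in both libraries. The highest mean fold enrichment lay on chromosome 16, at a peak from 1659782 to 1663294, with 15.7 in replicate 1 and 13.6 in replicate 2 (mean 14.6 ± 1.45, SD, n = 2). It had 308 and 293 ChIP fragments at the summit over a background of 18.7 and 20.6, and its IDR region was first of 4297 by signal. Of the 76 replicate 1 peaks at this end, 3 reached a fold enrichment of 6 (3.95%, interval 0.822% to 11.1%, against 7.46% of the whole list). Of the 38 replicate 2 peaks, 1 did (2.63%, interval 0.0666% to 13.8%, against 7.08%). Both intervals include the share of the whole list.

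Chromosome 11 had 4 of the 10 strongest pairs with 23 replicate 1 peaks, against 76 on chromosome 16. The strongest, from 693360 to 696824, reached 15.7-fold and 11.7-fold enrichment in the replicates (mean 13.7 ± 2.85, SD, n = 2), with 296 and 275 fragments. The next, from 518491 to 519384, had 14.1 and 11.4 (mean 12.7 ± 1.87, SD, n = 2), with 131 and 117 fragments over a background of 8.39 and 9.35. That peak overlapped no IDR region. The other 2 lay from 1408197 to 1413264, a broad peak with a mean of 10.2 ± 0.359 (SD, n = 2), and from 2949713 to 2951283, with a mean of 7.91 ± 1.01 (SD, n = 2). Of the 23 replicate 1 peaks on this end, 5 reached a fold enrichment of 6, against 7.46% of the whole list. Of the 14 replicate 2 peaks 4 did, against 7.08%. These counts are small and their shares were not tested.

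Chromosome 2 had an ordinary number of peaks, 7 in replicate 1, at rank 38 of the 81 windows of its chromosome, and 1 of them was very strong. This site, from 676904 to 678073, was enriched 15.3-fold in replicate 1 and 12-fold in replicate 2 (mean 13.6 ± 2.32, SD, n = 2), with 265 and 239 fragments, and ranked 44 of 4297 by IDR signal. The other 6 replicate 1 peaks of this end lay together in 6.55 kb, from 258540 to 265090, and reached at most a fold enrichment of 4.65. Between 1 and 3 Mb chromosome 2 had no peak in either replicate and no IDR region.

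On chromosome 4 the strongest member lay close to the 3 Mb boundary, from 2963952 to 2965681, with a fold enrichment of 14.1 and 9.45 (mean 11.8 ± 3.26, SD, n = 2). This was the widest spread between replicates among the 10 strongest pairs. Another peak of this end, from 1037940 to 1042502, had a mean of 8.07 ± 0.595 (SD, n = 2) and the same number of fragments, 253, in both replicates, over a background of 28.9 and 32.2. Its IDR signal was higher than that of the stronger peak, at 871 against 680.

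Chromosome 20 had a pair that stood apart in the direction of its difference. It spanned 1363822 to 1365519 and was enriched 8-fold in replicate 1 and 11.4-fold in replicate 2 (mean 9.71 ± 2.41, SD, n = 2), with 42 and 66 fragments over the smallest background of each list. It was the only 1 of the 10 strongest pairs with a higher value in replicate 2, and it overlapped no IDR region. A neighbour further in, from 2245089 to 2245858, had 9.12 and 6.54 (mean 7.83 ± 1.82, SD, n = 2).

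The strongest pair was weaker on the remaining ends. Chromosome 5 had 6.32 ± 0.575 from 2038400 to 2038930, chromosome 9 had 5.95 ± 0.256 from 2466246 to 2467120, and chromosome 10 had 4.65 ± 0.388 from 375450 to 376113 (SD, n = 2 each). Chromosome 6 had 3.55 ± 0.0424 from 1833050 to 1833224, and chromosome 3 had 2.58 ± 0.420 from 577767 to 578116 (SD, n = 2 each). The latter was the only site of the chromosome 3 end found in both libraries, with 34 and 28 fragments.

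**Figure D4:**
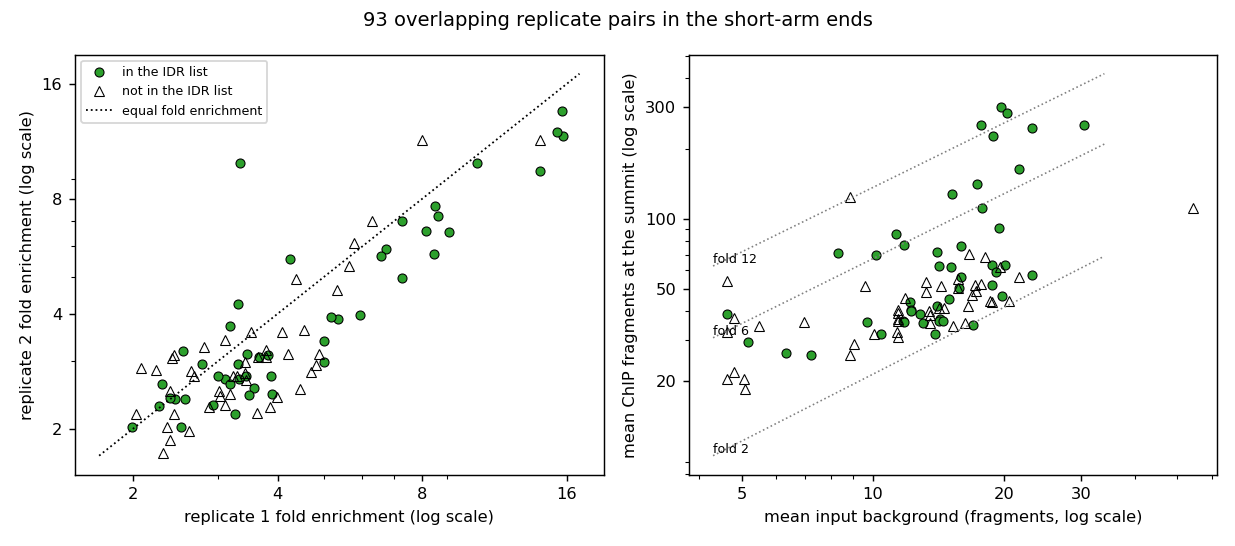
The 93 replicate 1 members that overlapped a replicate 2 peak, each set against the overlapping peak of nearest summit; left, fold enrichment in both replicates with a line of equal values, right, mean ChIP fragments at the summit against mean input background with lines of constant fold enrichment, all axes on a log scale, with circles for pairs in the IDR list and triangles for the others. Most points lie under the line of equal values, 68 of 93; the circle far above it is a second, weaker replicate 1 peak set against the same replicate 2 peak of chromosome 11, of fold enrichment 9.91.

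By IDR signal the leading regions were far apart. The region of highest signal had 1470 on chromosome 16, 1264 on chromosome 11, 911 on chromosome 2 and 871 on chromosome 4. On the other 5 ends that have one it lay between 191, on chromosome 5, and 239, on chromosome 20, against a median of 189 over all members and 192 over the whole list. The leader of chromosome 5 spanned 2038246 to 2039396, with a signal of 191, and that of chromosome 6 spanned 2989439 to 2991852, with 216. That of chromosome 9 spanned 214518 to 216525 and had 230, that of chromosome 10 spanned 180525 to 183178 and had 232, and that of chromosome 20 spanned 2082101 to 2084067 and had 239. All 9 overlapped a peak in both replicates. On chromosome 9 that peak had a fold enrichment of 3.26 and 2.19, below the strongest pair of the same end, which overlapped no IDR region. No source used here names the scale of the IDR signal, so it serves only to rank regions.

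Whether the 2 libraries marked the same short-arm sites depended on which list was asked. In replicate 1, 93 of 230 members overlapped a replicate 2 peak (40.4%, interval 34% to 47.1%), against 51.1% of the whole list. In replicate 2, 105 of 130 members overlapped a replicate 1 peak (80.8%, interval 72.9% to 87.2%), against 64.5%. Long-arm ends had similar shares, 96 of 219 (43.8%) in replicate 1 and 103 of 128 (80.5%) in replicate 2. All 17 strong members of replicate 1 and all 13 of replicate 2 overlapped a peak of the other list, as did 99.8% and 99.4% of all peaks of that height. Of the members below a fold enrichment of 3, 25 of 125 did so in replicate 1 (20%, against 29.2% of the whole list) and 58 of 64 in replicate 2 (90.6%, against 74.8%).

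The gap between these shares went with a longer replicate 1 list. It had 1.77 times as many members as replicate 2, against 1.25 times over the rest of the chromosomes and 1.71 times at the long-arm ends. Among peaks of fold enrichment 6 or more the ratio was 1.31 (17 and 13) at the short-arm ends, 1.5 (15 and 10) at the long-arm ends and 1.22 over the rest. Over peaks of any height, replicate 1 over replicate 2 was 3.33 on chromosome 5, 3 on chromosome 10 and 2 on chromosome 16, and 0.667 on chromosome 9. The 137 replicate 1 members without a replicate 2 peak had a median fold enrichment of 2.65, at most 5.40, and a median of 36 fragments, against 3.50 and 47 fragments for the 93 shared ones. Their median background, 13.3 fragments, was close to the 13.1 of the shared ones. Replicate 2 differed from this. Its 25 members without a replicate 1 peak had a higher median fold enrichment than its 105 shared ones, 3.29 against 2.94. They had fewer fragments, a median of 23 against 43, over a lower median background, 5.38 against 14.6.

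In the 93 pairs, fold enrichment was higher in replicate 1 in 68 and in replicate 2 in 25. Over the rest of the chromosomes it was higher in replicate 1 in 2032 of 3110 pairs. Among the 61 pairs with summits within 100 bp, the log2 of replicate 2 over replicate 1 had a median of -0.29 for fold enrichment and -0.11 for fragments. These values were -0.19 and -0.06 over the rest. Pairs share their libraries and 4 replicate 2 peaks each stand in 2 pairs, so these are descriptions.

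IDR regions overlapped 82 of 230 replicate 1 members (35.7%, interval 29.5% to 42.2%, against 32.8% of the whole list) and 56 of 130 replicate 2 members (43.1%, interval 34.4% to 52.0%, against 31.4%). Of the 70 IDR members, 42 overlapped peaks of both replicates (60%, interval 47.6% to 71.5%, against 63.3% of the whole list), 17 overlapped replicate 1 only (24.3%, against 15.6%) and 0 overlapped replicate 2 only (at most 5.13% by the exact interval, against 2.82%). The other 11 overlapped no replicate peak (15.7%, interval 8.11% to 26.4%, against 18.3%). These 11 had a median signal of 168 and at most 241, against 212 and 1470 for the 42 with both. At the long-arm ends IDR regions overlapped 43.8% of replicate 1 peaks and 56.25% of replicate 2 peaks. Of the 79 IDR regions there, 50 overlapped both replicates (63.3%) and 20 replicate 1 only (25.3%). Another 2 overlapped replicate 2 only (2.53%) and 7 overlapped neither (8.86%).

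Counted as sites, 42 of the 237 (17.7%) were in all 3 lists. Another 43 were in both replicates without an IDR region, 102 in replicate 1 only, 22 in replicate 2 only, 17 in replicate 1 and the IDR list and 11 in the IDR list only. Chromosome 16 had 69 of these sites, of which 14 were in all 3 lists, and chromosome 4 had 47, of which 10 were. Chromosome 5 had 22 sites with 2 in all 3 lists and 16 in replicate 1 only. Chromosome 9 had 19 sites, 8 of them in replicate 2 only.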

How the data were processed

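Peaks were deposited as 3 lists in hg19. Per the labels, each replicate list sets 1 ChIP library against input. MACS2 2.1.1, Picard and BWA 0.7.13-r1126 stand in the submitters' processing notes, with no role. Settings for calling are not given in the sources used here. In the replicate lists the authors deposited a fold enrichment (a ratio) and −log10 p and q values for each peak. The IDR list has a deposited signal and a deposited score; its caller and how libraries were combined are not given in the sources used here.

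Fragments k and background b were recovered from fold = (k + 1)/(b + 1) and the Poisson tail above k. A whole k fitted within 0.001 of the deposited −log10 p in 100% of the 14431 and 11990 peaks. Fragments had medians of 34 and 30 over the whole lists, which limits each fold value. The smallest background was 4.37 and 4.87. Total reads are unknown.

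Chromosome lengths are those of hg19, with unsequenced gaps included, and positions count from 1. Overlap means at least 1 bp. Density ratios were tested with exact conditional (binomial) tests and Benjamini-Hochberg adjustment in SciPy 1.17.1, after a check on simulated data. For the ratios that check drew independent Poisson counts, which is the model of the test. It therefore cannot show that the p-values hold for clustered peaks. Shares have Clopper-Pearson intervals and no test. Intervals cover counting error only. Named regions are, for each end, the IDR region of highest signal and the overlapping pair of highest mean fold, the 10 strongest pairs of all ends, and the peak nearest to each end. Other regions were chosen after their values were seen. The members, lists and tests were chosen with earlier results of these data known. Genes, gene lists and sequences at the peaks were not analysed, for want of an hg19 annotation and genome. Alternatives covered the window, peak filters, lengths, overlap rules and each chromosome left out.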

Additional observations from a re-analysis of the deposited data

How the results depend on the processing

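The short-arm over rest ratio kept its call in replicate 1 and the IDR list when the window or the length was changed and when any 1 chromosome was left out; peak filters, which replicate 1 also passed, were not run on the IDR list. Alternatives without chromosomes 4 and 16 together, and all those for single ends, were chosen after seeing the data. Without 4 and 16 the ratio was 1.12 in replicate 1, 0.816 in replicate 2 (turned) and 1.35 in the IDR list; in replicate 2 it was 1.16 without chromosome 4, 1.06 without chromosome 16 and 1.78 at a fold of 6 or more. From 1 replicate list alone it was 1.35 to 1.91. The short-arm over long-arm ratio without 4 and 16 was 0.634 in replicate 1 and 0.674 in replicate 2, both turned, and 0.593 in the IDR list; from 1 replicate list alone it was 1.02 to 1.05. With a window of 1 Mb, 5 ends rather than 3 were higher in replicate 1. Ends with lower density numbered 0 in place of 1 in replicate 1 and in replicate 2 with windows of 1 or 2 Mb or a fold of 6 or more, and with a window of 5 Mb 2 in replicate 2 and 1 (in place of 0) in the IDR list. Asking for 50% reciprocal overlap, the share of members found in the other replicate was 27.4% in replicate 1 and 48.5% in replicate 2. Asking for summits within 100 bp it was 26.5% and 46.9%, and among peaks of −log10 q from 5 up it was 61.2% and 92.3%. Reciprocal overlap with the IDR list, whose regions are wider, left 7.83% and 10%. A fold of 8 or more was reached by 5.38% of replicate 2 members. Of 149 alternative values, 122 stayed on the same side of their threshold, within their interval or, for counts of ends and named pairs, within a set factor of the main count. The 149 include the replicate ratios set in place of those of the IDR list. Other causes were not tested. No paired analysis was possible because ChIP and input are joined in every deposited list, with no values for an input library alone. Medians of 38 and 40 fragments limit weak members.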

Other observations

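Members often had close neighbours. Of the 230 replicate 1 members, 143 (62.2%) had another peak of the list with its summit within 10 kb, against 53.5% over the rest of the chromosomes, and in replicate 2 it was 73 of 130 (56.2%), against 50.8%. At the long-arm ends the shares were 53.4% in replicate 1 and 49.2% in replicate 2. In the IDR list the share was 12.9% of members, 16.5% at the long-arm ends and 7.71% over the rest. These shares were not tested. The groups held weak and strong peaks, among them the strongest peak of chromosome 16. The fullest, chosen after their values were seen, had 6 replicate 1 peaks each. One lay on chromosome 2 from 258540 to 265090, where replicate 2 had 2 peaks and the IDR list 1 region. The other lay on chromosome 5 from 777544 to 790144, where replicate 2 had 1 peak and the IDR list none. On chromosome 10, 5 replicate 1 peaks lay from 1094599 to 1102666 with no replicate 2 peak, at a fold enrichment of at most 2.86. The widest IDR member, 6113 bp on chromosome 16 from 729935 to 736047, held 1 replicate 1 peak of fold enrichment 3.87 and 4 replicate 2 peaks of at most 2.75.

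The peaks nearest to the telomeres lay on chromosome 4, where both replicates had a peak 28.7 kb from the first base of the chromosome, with a fold enrichment of 3.44 and 2.68 and 38 and 35 fragments. The first IDR region of that chromosome lay 124 kb from the end. A second pair on chromosome 4, from 53220 to 54098 in replicate 1, lay over the highest input background of all members, 55.4 fragments in replicate 1 and 53.4 in replicate 2, with 129 and 93 ChIP fragments and a fold enrichment of 2.30 and 1.73. On chromosome 6 the first replicate 2 peak lay 1833 kb from the end, against 292 kb in replicate 1, and on chromosome 3 the first peak lay 578 kb from the end in both.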
